A study of Homo sapiens with 18 samples.

Results

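The 33 genes described here are known as transcriptional targets of p53 and were chosen by gene symbol from general knowledge of the p53 response. The choice was made with earlier results of these data known. Genes were joined across tables by Entrez Gene identifier. All 33 had a row in the CBFB table and in the RUNX1 KO1 table, and 32 had one in the RUNX1 KO2 table, where SFN was not analysed here. The 3 tables together listed 19401 genes, of which 17252 were in all of them.

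RNA-seq was performed in MCF10A, an immortalized, non-tumorigenic line of human mammary epithelial cells. The 18 libraries fell into 5 groups. CBFB KO (3 libraries) was set against its own CBFB WT (3 libraries), and RUNX1 KO1 and RUNX1 KO2 (4 libraries each) were set against a RUNX1 WT group (4 libraries). CBFB, the core binding factor subunit that does not itself touch DNA, stabilizes the binding of the RUNX transcription factors, and RUNX1 is one of them. The knockouts were made by CRISPR and expanded from single cells. The labels name no clone for CBFB KO, and each of the 3 knockout groups was taken to be 1 clone. What is particular to a clone and what follows from the loss of the gene cannot be told apart. All groups, WT included, were untreated and grew in DMEM/F12 with horse serum, insulin, EGF, hydrocortisone and cholera toxin, at low passage. No agent that damages DNA was given, so the values describe p53 target genes in untreated cells.

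The measurement used is the authors' mean of normalized counts, 1 value per gene and table, taken over the knockout and WT libraries of that table together (called the pooled mean below). It carries no SD and no n, so no test was made, and every difference below is a description. Because knockout and WT are averaged, a pooled mean gives the level of a gene in the experiment and not its response to the knockout. The pooled means summed to 20214400 (CBFB table), 18050400 (KO1) and 16467400 (KO2). The targeted genes could not be checked against the labels in a mean over both genotypes: CBFB had pooled means of 897, 1058 and 931, and RUNX1 of 1606, 922 and 839, in the CBFB, KO1 and KO2 tables. The cells carried the epithelial label, with 9 of 9 epithelial markers in the CBFB table at pooled means from 1606 to 87894, whereas the endothelial markers reached at most 3.97 in any table. Of the leukocyte markers listed, CD14 alone passed 100, at 128 to 142, and among the fibroblast markers COL1A1 (236 to 305) and PDGFRA (466 to 633) did.

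The tumour suppressor p53 is a transcription factor that is kept at low levels by MDM2, an E3 ligase whose own gene p53 activates. When DNA is damaged or the cell is otherwise stressed, p53 is stabilized, binds response elements made of a pair of decameric half-sites, and activates genes that halt the cell cycle, repair DNA, alter metabolism or trigger apoptosis. In mammary epithelium the basal relative p63, which has roles of its own in the maintenance of the lineage, recognizes related elements.

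Response elements of p53 lie in introns as well as beside the start site, so the proximal promoter shows only part of them. Promoter sequences from RefSeq (GRCh38.p14), running from 250 bases before the start site to 50 bases after it, were matched for 29 of the 33 genes. They were searched on both strands for the p53 element, as 2 half-sites of 10 bases with the C and the G of each core kept, up to 10 bases between them and at most 2 mismatches elsewhere. AEN and FDXR held a match, 2 of 29 (6.90%), against 2.32% of all 35116 promoters. With at most 1 mismatch none of the 29 matched, against 0.305% of all promoters. The 2 matches are printed in full below. FDXR also showed the largest difference between the RUNX1 tables among the genes compared, described further on, with a log2 ratio of -0.48, whereas AEN had -0.04. Whether the matches bear on these ratios was not tested. Capitals mark the half-sites and lower case the bases between them, 5′ to 3′ on the strand of the gene.
AEN, chr15:88621306-88621325, plus strand, first base 34 bases before the start site: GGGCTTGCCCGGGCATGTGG
FDXR, chr17:74872996-74873025, minus strand, first base 31 bases before the start site: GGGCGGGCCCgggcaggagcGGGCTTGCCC

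Both matches have 2 mismatches, and the half-sites of AEN adjoin whereas those of FDXR are 10 bases apart. The RUNX core TGTGGT, on either strand, stood in 3 of the 29 promoters (GDF15, PPM1D and TRIAP1; 10.3%) and in 13.1% of all promoters. Counting TGTGGT or TGCGGT, 5 of 29 held a match (17.2%, with BAX and SESN2 added), against 19.6% of all promoters. Neither RUNX count stood above the share in all promoters, and a match of letters is not a bound site.

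The p53 target genes were expressed above the typical gene. Their median pooled mean was 561, 541 and 565 in the CBFB, KO1 and KO2 tables, against 244, 210 and 187 over all listed genes. A pooled mean of at least 100 was reached by 29 of 33, 30 of 33 and 29 of 32 of them (87.9%, 90.9% and 90.6%), against 58.9%, 57.8% and 56.4% of all listed genes. They made up 0.198%, 0.236% and 0.139% of the summed pooled means. These shares are not like for like, because SFN counted in the first 2 of them, and with SFN left out of the p53 target genes they were 0.117%, 0.123% and 0.139%. These still cannot be compared, because the sums of the first 2 tables hold SFN. The KO2 sum also lacks 354 genes that had a pooled mean of at least 100 in the KO1 table. To compare genes with each other, pooled means were divided by transcript length and scaled to a sum of 1000000 over the listed genes, and on this scale the median was 21.03, 20.6 and 21.8 for the p53 target genes against 9.73, 7.83 and 7.85 for all genes. The same missing genes make this scale differ between the KO2 table and the others.

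**Figure D1:**
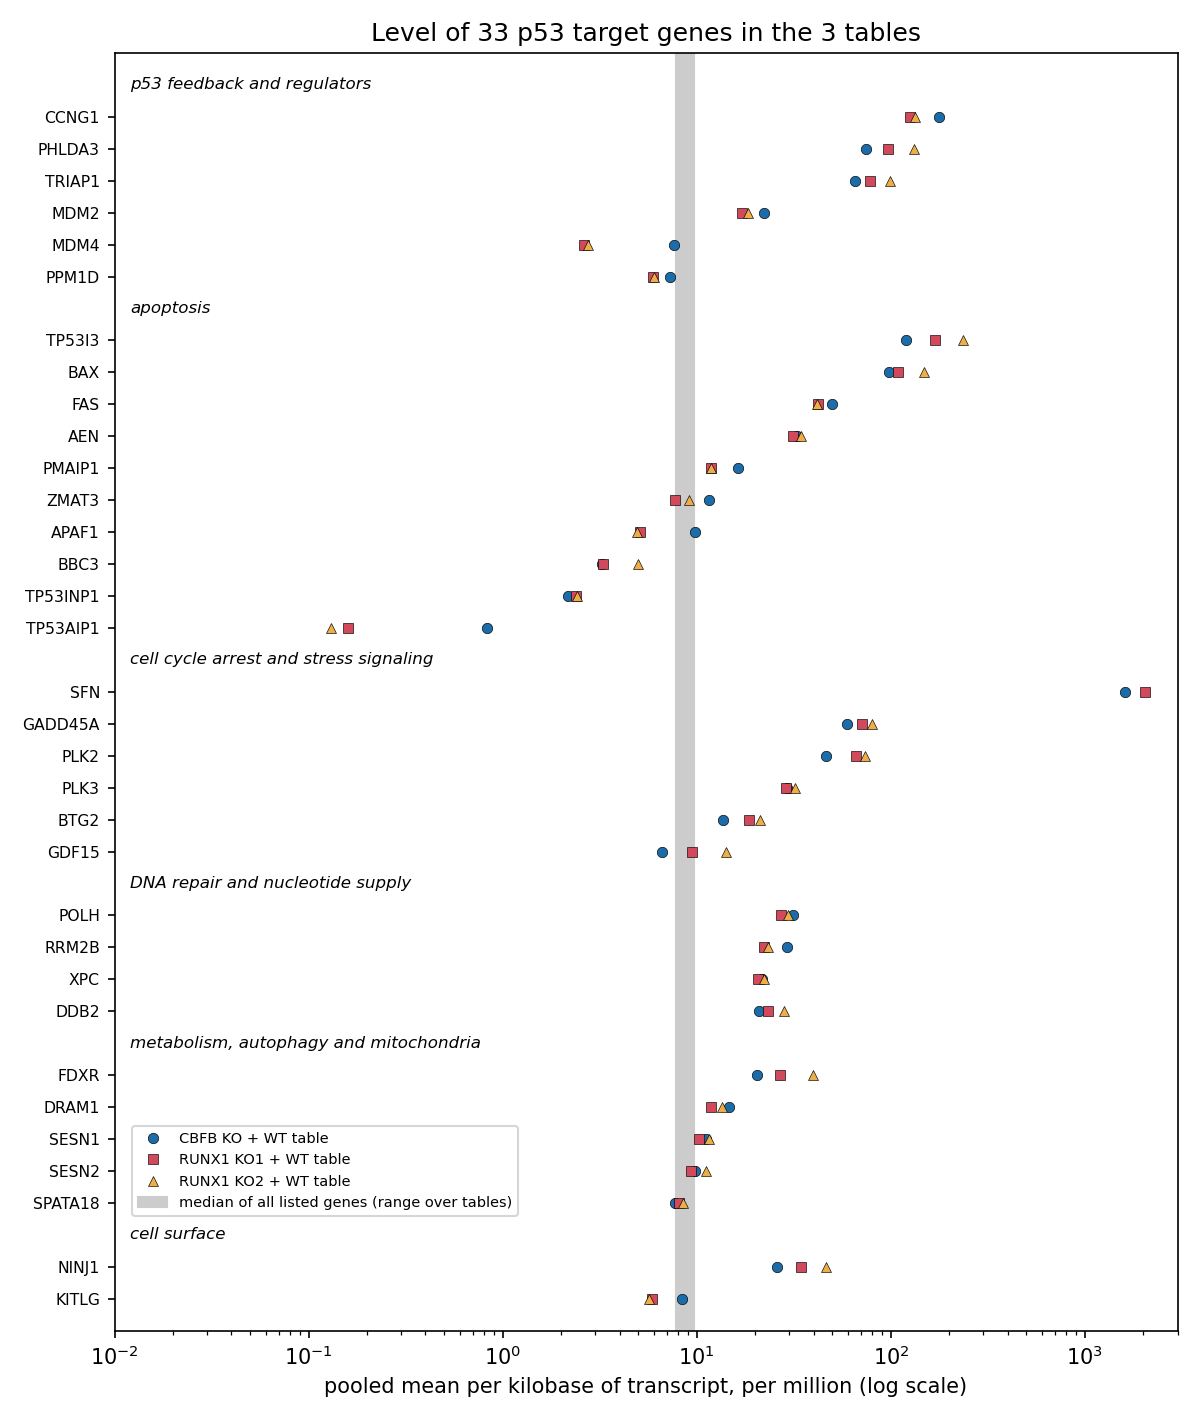
Level of each of the 33 p53 target genes on a log axis, as the pooled mean per kilobase of transcript scaled to a sum of 1000000, in the CBFB table (circles), the KO1 table (squares) and the KO2 table (triangles), grouped by role, with no error because each point is 1 pooled value. SFN stands far above the rest, TP53AIP1 far below, and the grey band spans the median of all listed genes in the 3 tables, 7.83 to 9.73.

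The feedback genes included some of the most abundant. MDM2 had pooled means of 2172, 1620 and 1524 in the CBFB, KO1 and KO2 tables. CCNG1, which encodes cyclin G1 and recruits a phosphatase to MDM2, had 3366, 2321 and 2146, the highest of the 6 feedback genes in the CBFB and KO1 tables. PHLDA3, an inhibitor of AKT, had 1513, 1929 and 2292. Thus, before any scaling of the tables, the feedback genes did not share one order of the tables: MDM2 and CCNG1 were highest in the CBFB table and PHLDA3 in the KO2 table. For MDM2 this order depends on a correction for length and GC content given further on. TRIAP1, a small mitochondrial protein that restrains apoptosis, followed PHLDA3 in that order, with 599, 695 and 768. PPM1D, the phosphatase WIP1 that switches p53 signaling off, had 270, 215 and 190. MDM4, the relative of MDM2 that masks the activation domain of p53, had 597, 200 and 183, so that its pooled mean in the CBFB table stood far above both RUNX1 tables. Per kilobase, with its longest annotated transcript (12633 nt) taken as the length, MDM2 was only moderately abundant, at 22.2, 17.0 and 18.3. CCNG1 (177, 125 and 132) stood well above it. Which MDM2 transcript these cells use is not known here.

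The 10 apoptosis genes spanned the widest range downwards. TP53I3, a quinone oxidoreductase linked to oxidative stress, was the most abundant of them, with pooled means of 1860, 2543 and 3114. AEN, an apoptosis-enhancing nuclease, had 1272, 1188 and 1139. BAX, which permeabilizes the outer mitochondrial membrane, had 1023, 1114 and 1322. In the KO1 and KO2 tables these 3 genes stood between percentiles 81.2 and 94.8 of the listed genes. The death receptor gene FAS had 981, 816 and 707. The genes of BH3-only proteins and of the apoptosome were lower. BBC3, which encodes PUMA, had 46.4, 45.4 and 60.6, and PMAIP1, which encodes NOXA, had 245, 173 and 151. APAF1, the scaffold of the apoptosome, had 536, 273 and 230, again highest in the CBFB table. ZMAT3, an RNA-binding zinc finger protein, had 840, 546 and 567, and TP53INP1, which acts in autophagy and apoptosis, had 94.3, 101 and 89.9. TP53AIP1, a mitochondrial protein gene, was close to the bottom with 20.1, 3.78 and 2.67.

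Among the genes of cell cycle arrest and stress signaling, SFN was the most abundant of all the p53 target genes. It encodes 14-3-3 sigma, an epithelial protein that holds CDK1 complexes in the cytoplasm. Its pooled mean was 16491 in the CBFB table and 20395 in the KO1 table, at percentiles 99.3 and 99.5 of the listed genes. The KO1 table held 354 genes with a pooled mean of at least 100 that had no row in the KO2 table, SFN and the keratin gene KRT14 among them, and 0 such genes stood the other way. Per kilobase, SFN (1616 and 2049) stood far above GADD45A (59.2, 71.4 and 80.3), the next of this group. GADD45A, a sensor of genotoxic stress that inhibits CDK1, had pooled means of 684, 806 and 792. The polo-like kinase genes PLK2 and PLK3 had 1061, 1477 and 1437 for PLK2 and 561, 541 and 525 for PLK3. The antiproliferative gene BTG2 had 285, 382 and 379. GDF15, a secreted stress cytokine of the TGF-beta superfamily, was low at 61.2, 85.2 and 112. GADD45A, PLK2, BTG2 and GDF15 thus had their lowest pooled mean in the CBFB table, whereas PLK3 was highest there before any scaling of the tables.

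The 4 genes of DNA repair and nucleotide supply were all of middle to high level. The xeroderma pigmentosum genes XPC, which recognizes bulky lesions, DDB2, which recognizes ultraviolet damage in chromatin, and POLH, a polymerase that copies past it, had pooled means in the CBFB, KO1 and KO2 tables of 646, 596 and 563 for XPC, of 504, 544 and 577 for DDB2, and of 862, 726 and 688 for POLH. RRM2B, the p53-inducible ribonucleotide reductase subunit, had 1117, 829 and 759. Per kilobase all 4 lay between 20.6 and 31.5 in every table.

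The genes of metabolism, autophagy and mitochondria were expressed at a middle level. SESN1 and SESN2 encode sestrins, which restrain mTORC1. SESN1 had pooled means of 304, 272 and 268, and SESN2 had 261, 242 and 253. The autophagy gene DRAM1 had 399, 312 and 313, and SPATA18, which takes part in mitochondrial quality control, had 261, 270 and 247. FDXR, the ferredoxin reductase of the mitochondrion, departed from these, with 391, 502 and 651. Of the cell surface genes, NINJ1, which ruptures the plasma membrane of dying cells, had 408, 529 and 618, and KITLG, the ligand of the receptor KIT, had 374, 254 and 215.

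Ordered per kilobase, the most abundant after SFN were CCNG1, TP53I3, BAX and PHLDA3 in the CBFB table, and TP53I3, CCNG1, BAX and PHLDA3 in the KO1 table. In the KO2 table TP53I3 (236) led, followed by BAX (148), CCNG1 (132) and PHLDA3 (132). At the other end stood TP53AIP1 (0.833, 0.160 and 0.130) and TP53INP1 (2.16, 2.38 and 2.42) in every table. Because the tables give no spread, whether neighbours in this order differ cannot be judged. For CCNG1, GADD45A, TRIAP1, MDM4 and POLH, 1 pseudogene each is named after the gene in the RefSeq gene table, and how reads shared with such copies were counted is not given in the sources used here.

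Around the target genes, the pathway itself was expressed. Of 20 genes fixed as the p53 family, its upstream kinases and cofactors, the MDM2 axis and other p53 regulators, 19 were listed in every table, and 18 had a pooled mean of at least 100 and above the median of all genes. TP63, which encodes p63, had pooled means of 1606, 953 and 730, and TP73 was low at 34.6, 28.6 and 26.6. CDKN1A, which encodes the CDK inhibitor p21 and is the best known p53 target but is not among the 33, had 3064, 3903 and 4471. Its pooled mean exceeded that of all 32 p53 target genes listed in the KO2 table, of all but SFN in the KO1 table, and of all but SFN and CCNG1 in the CBFB table. CDKN2A, whose ARF product inhibits MDM2, was not analysed here.

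The first comparison asked where the RUNX1 clones differ from each other. The labels give a single WT group for the RUNX1 experiment, so the pooled means of the KO1 and KO2 tables were taken to share their WT libraries, and their ratio then moves toward 1 from the ratio of the clones. Ratios were centred on the median over the 10174 genes with a pooled mean of at least 100 in both tables, which removed a shift of 0.10 on the log2 scale. Of the 33 p53 target genes 28 were compared, and BBC3, GDF15, TP53AIP1, TP53INP1 and SFN were not counted, SFN for want of a row and the others for a pooled mean under 100 in 1 or both tables.

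A gene was counted as past the limit where its centred log2 ratio was at least 0.32 in either direction. FDXR, TP53I3, PHLDA3, BAX and NINJ1 passed it with higher pooled means in the KO2 table. These 5 of 28 genes (17.9%) compare with 5.36% of all 10174 genes. In the other direction 0 of 28 genes passed, against 0.423% of all genes. The log2 ratio of the KO1 to the KO2 table was -0.48 for FDXR, whose pooled mean was 467 in the KO1 table once scaled and 651 in the KO2 table. It was -0.40 for TP53I3 (2367 scaled, against 3114), -0.35 for PHLDA3 (1795 against 2292), -0.35 for BAX (1037 against 1322) and -0.33 for NINJ1 (492 against 618). If the WT libraries are shared and the scaling holds, the mean in KO2 exceeded that in KO1 by 2 times these gaps, which is 368 normalized counts for FDXR and 570 for BAX.

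TRIAP1 (-0.25) and DDB2 (-0.19) stood nearest outside the limit on the same side. At the other end the ratios were small: APAF1 had 0.14, KITLG 0.14, FAS 0.10 and PMAIP1 0.09. MDM2 (-0.02), CCNG1 (0.01), MDM4 (0.02), RRM2B (0.02) and XPC (-0.02) were at nearly the same scaled level in both tables. Over the 28 genes the log2 ratio had a median of -0.06, against 0 for all genes by construction, and it was below 0 for 19. By role, 5 of 6 feedback genes, all 4 repair genes and the 4 cell cycle genes compared (PLK2, PLK3, GADD45A and BTG2) stayed within the limit. Only 5.78% of all genes were past it in either direction, so these counts do not set the 3 role groups apart from other genes. BBC3 (-0.52) and GDF15 (-0.50), not counted because a pooled mean was under 100 in 1 or both tables, also had higher pooled means in the KO2 table. With a minimum of 10 they passed, and 7 of 31 genes did on the KO2 side and 0 on the KO1 side, against 7.03% and 1.17% of all genes. After the correction for length and GC content described below they had -0.318 and -0.297, within the limit.

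**Figure D2:**
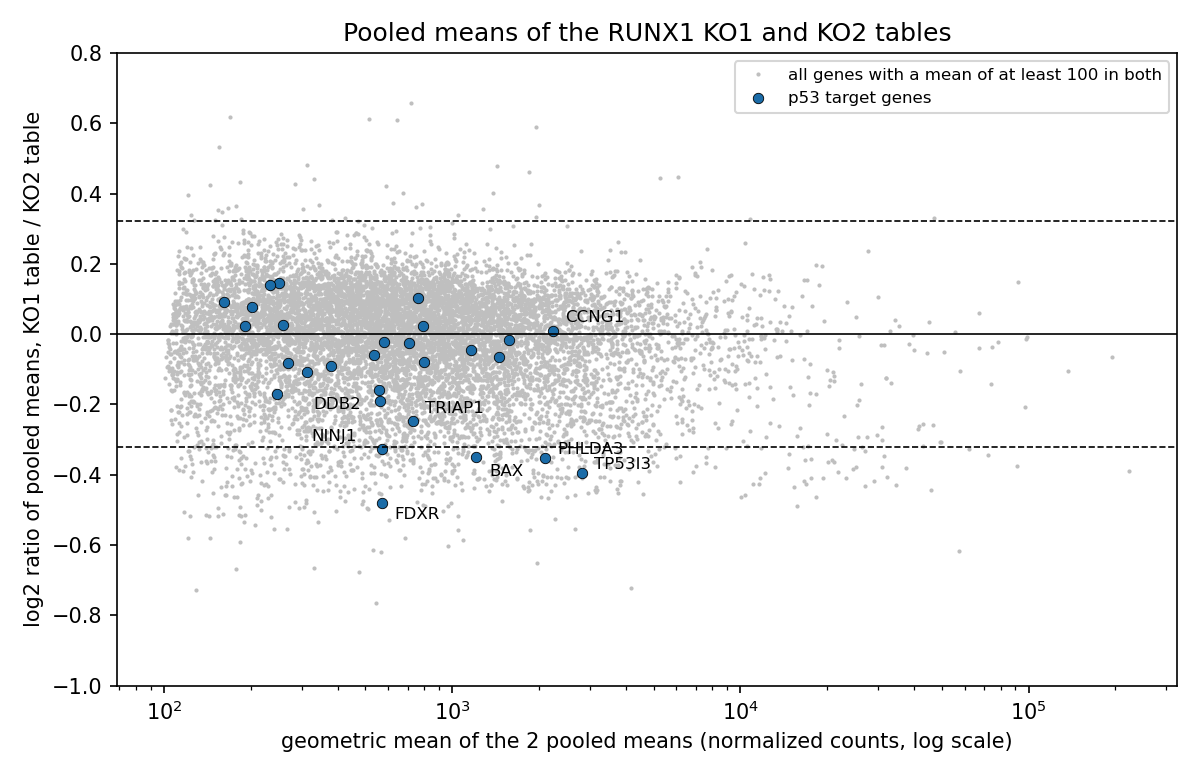
Log2 ratio of the pooled means of the KO1 and KO2 tables, centred on the median, against their geometric mean on a log axis, for 10174 genes (grey; 4 lie outside the vertical axis) and 28 p53 target genes (blue), with dashed lines at 0.32 in either direction. FDXR, TP53I3, PHLDA3, BAX and NINJ1 lie below the lower line and no p53 target gene lies above the upper one.

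In the same comparison TP63 had a log2 ratio of 0.28 and CDKN1A of -0.30, the last just short of the limit. After the correction for length and GC content given next, TP63 had 0.23 and CDKN1A -0.18. Of 18 pathway genes compared 1 passed the limit, RPL11, a ribosomal protein that binds MDM2, higher in the KO2 table with -0.36, a share near the 5.36% of all genes. After the same correction RPL11 had -0.27 and 0 of 18 passed. RPL5, its partner, had -0.28. TP63, the gene of the relative of p53, was thus on the KO1 side, within the limit.

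The ratio moved with the length and base composition of transcripts across all genes. Over 10094 genes with a length, its Spearman correlation with transcript length was 0.52 and with GC content -0.44 (genes within the same pair of pooled libraries, given as a description). The 5 genes past the limit were short and GC-rich, with a median length of 2026 nt and a median GC content of 58.9%, against 3519 nt and 44.2% for the other 23. All genes past the limit on the KO2 side had a median of 1884 nt and 56.5%, and all genes compared 3793 nt and 47.9%. When the ratios were corrected for length and GC content by a fitted trend, an alternative chosen after seeing the data, FDXR alone of the 28 genes stayed past the limit with -0.35, against 1.93% of all genes on that side, and 0 of 28 passed on the KO1 side, against 0.565%. TP53I3 then had -0.26, PHLDA3 -0.24, NINJ1 -0.20 and BAX -0.18. The part of length and GC content in the result was not tested beyond this.

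**Figure D3:**
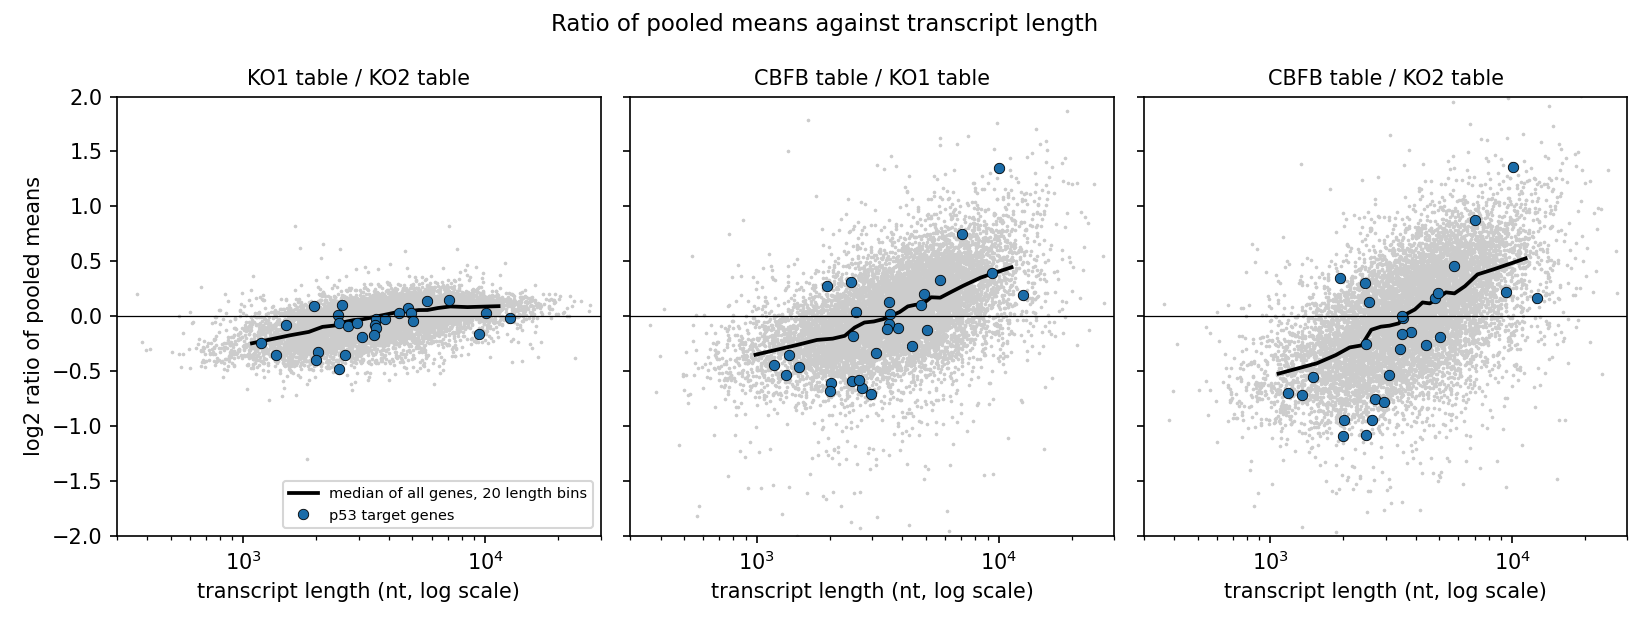
Centred log2 ratio of pooled means against transcript length (log axis) for the 3 pairs of tables, with all genes in grey, their median in 20 bins of length as a line, and p53 target genes in blue; 33, 47 and 56 genes lie outside the axes. The line climbs with length in each panel, and MDM4 is the highest p53 target gene in the CBFB panels, above the line at its length.

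The second comparison set the CBFB table beside the RUNX1 tables. These were separate experiments, each with its own WT, and were normalized separately, so experiment and genotype cannot be told apart. The same CBFB table enters both pairs, and the RUNX1 tables were taken to share their WT. After centring, which removed 0.23 (KO1) and 0.35 (KO2) on the log2 scale, 36.4% and 50.5% of all genes were past the limit: 20% of 10531 genes were higher in the CBFB table than in the KO1 table and 16.5% lower. For the KO2 table the shares were 25% and 25.4% of 10064 genes.

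Against the KO1 table, 4 of 29 p53 target genes were past the limit in the CBFB table (13.8%) and 11 in the KO1 table (37.9%). Against the KO2 table, 4 of 28 (14.3%) and 10 of 28 (35.7%) were. The share on the RUNX1 side thus exceeded the 16.5% and 25.4% of all genes, and the share on the CBFB side was under the 20% and 25%. The median log2 ratio was -0.12 and -0.18.

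MDM4 stood out on the CBFB side, with log2 ratios of 1.34 over the KO1 table and 1.36 over the KO2 table, followed by APAF1 with 0.75 and 0.88. KITLG (0.33 and 0.45) was also past the limit in both pairs, ZMAT3 (0.39 and 0.22) in the pair with KO1 alone and PMAIP1 (0.27 and 0.35) in that with KO2 alone. On the RUNX1 side, PLK2 (-0.71 and -0.78), TP53I3 (-0.68 and -1.09), BTG2 (-0.65 and -0.76), NINJ1 (-0.61 and -0.95), FDXR (-0.59 and -1.08) and PHLDA3 (-0.58 and -0.95) had the largest ratios. GADD45A (-0.47 and -0.56), TRIAP1 (-0.44 and -0.70), BAX (-0.35 and -0.72) and DDB2 (-0.34 and -0.54) passed as well. SFN had -0.54 against the KO1 table. By role, 4 of 5 cell cycle and stress genes were higher in the KO1 table, against 16.5% of all genes, PLK3 (-0.18) being the exception. In the correction for length and GC content described next, PLK2 and BTG2 remained (2 of 5), against 11.7% of all genes after that correction. SFN (-0.12) and GADD45A (-0.23) then fell within the limit and PLK3 had 0.09. In the uncorrected ratios XPC (-0.11), POLH (0.02), SESN1 (-0.07), FAS (0.04) and PPM1D (0.10) were within the limit.

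**Figure D4:**
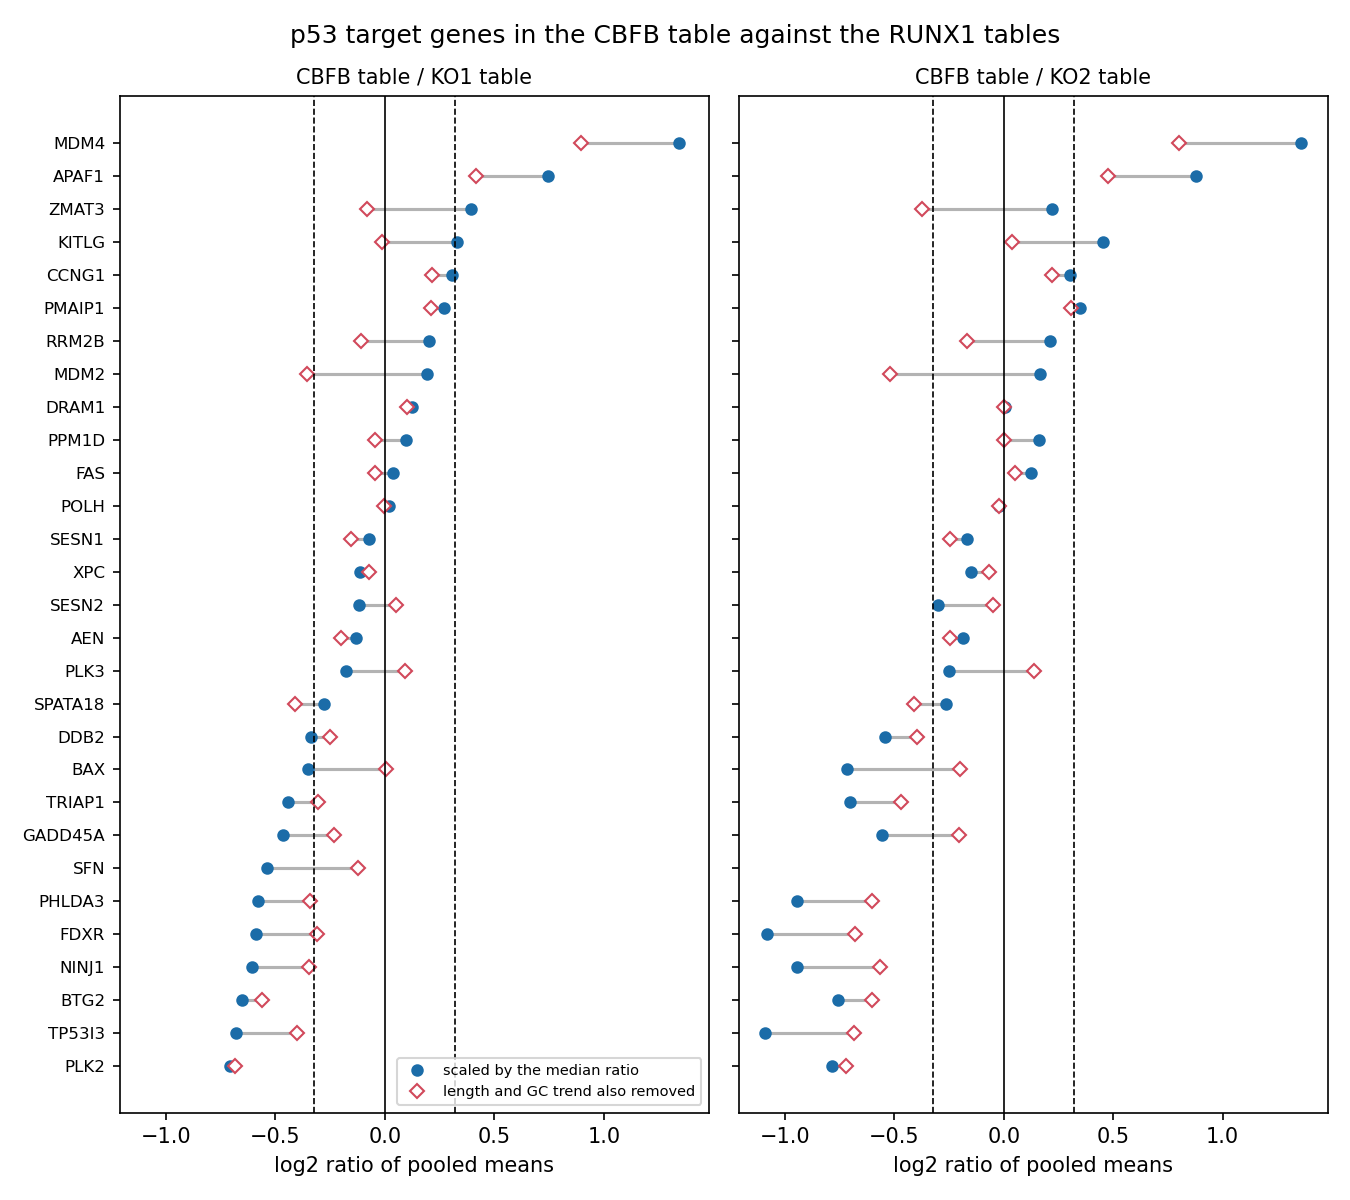
Log2 ratio of the pooled mean in the CBFB table to that in the KO1 table (left) and the KO2 table (right) for each p53 target gene with a pooled mean of at least 100 in both the CBFB and KO1 tables, centred on the median (filled) and after correction for length and GC content (open), with dashed lines at 0.32 in either direction. MDM4 and APAF1 stay beyond the right line under both, MDM2 moves from the right of 0 to beyond the left line, and SFN has no point on the right.

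These ratios also moved with transcript length (Spearman correlation 0.55 and 0.56) and GC content (-0.50 and -0.50) over all genes. After the same correction, MDM4 (0.89 and 0.80) and APAF1 (0.41 and 0.47) remained past the limit on the CBFB side, 2 of 29 and 2 of 28 genes, against 10.2% and 14.4% of all genes. On the RUNX1 side 7 of 29 and 11 of 28 genes passed, against 11.7% and 18%. PLK2 (-0.68 and -0.72), BTG2 (-0.56 and -0.60), TP53I3 (-0.40 and -0.68), NINJ1 (-0.35 and -0.56) and PHLDA3 (-0.34 and -0.60) were among them in both pairs. MDM2, with the longest transcript of the 28, changed sides, from 0.19 and 0.17 to -0.36 and -0.52, and BAX moved from -0.35 to 0.00 against the KO1 table. How MDM2 compares between the experiments thus depends on this correction, whereas the higher pooled mean of MDM4 and the lower pooled means of PLK2 and BTG2 in the CBFB table do not.

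Of the pathway genes, TP63 was higher in the CBFB table in both pairs (0.52 and 0.79) and CDKN1A lower (-0.58 and -0.89). ATM, the kinase that phosphorylates p53 after double-strand breaks, had the largest ratio of the 18 pathway genes compared, 1.45 and 1.59, and still 0.83 and 0.81 after that correction. In all, 6 of 18 pathway genes were higher and 2 lower in the CBFB table than in the KO1 table, against 20% and 16.5% of all genes, and 8 were higher and 3 lower than in the KO2 table, against 25% and 25.4%. After the correction 6 were higher and 1 lower (10.2% and 11.7% of all genes), and 6 higher and 3 lower (14.4% and 18%).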

How the data were processed

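The submitters' processing notes name Trimmomatic, STAR, DESeq2 and hg19, without versions. The labels name a TruSeq mRNA kit, whereas the study's methods describe removal of rRNA, so the library type is uncertain. The counting tool and annotation are not given in the sources used here. The authors deposited 3 whole-series tables, 1 for each knockout group against WT. From each, the deposited mean of normalized counts was used, a signal value that the authors pooled over knockout and WT libraries. The other columns hold the authors' own comparisons (log2 fold change, its standard error, the test statistic, the p-value and the adjusted p-value) and were not used. Columns of single libraries used here number 0, so depth and errors per library are unknown, and whether the repeats were separate cultures is not stated.

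The 33 genes, their role groups, the pathway list and the marker lists were chosen with earlier results of these data known. All 33 genes are named, other lists are given as counts and ranges, and TP63, TP73, CDKN1A, CBFB and RUNX1 with values. The values of 1 gene of the pathway list that the same rule names are not reported here, and CDKN2A was not analysed. ATM, RPL5, RPL11, KRT14, CD14, COL1A1 and PDGFRA were named after their values were seen. Length and GC content were read from GENCODE release 29, with each gene represented by its longest transcript, and levels per kilobase were scaled to a sum of 1000000 over genes with a length. Log2 ratios between tables were centred on the median over genes with a pooled mean of at least 100 in both, and genes with a ratio of at least 0.32 in size were counted against the same count over all genes. Alternatives were no scaling, scaling to the sum, a minimum of 10, no minimum, a 1.5-fold limit, median transcript length and, chosen after seeing the data, removal of a quadratic trend on log2 length and GC content. Python 3.11.15, pandas 2.3.3, numpy 2.4.6 and scipy 1.17.1 were used.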

Additional observations from a re-analysis of the deposited data

How the results depend on the processing

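No paired analysis was possible because the tables hold no values of single libraries, and for the same reason no replicate could be left out and no error or depth can be given for any value. The order per kilobase kept 8, 7 and 7 of its 10 highest genes in the CBFB, KO1 and KO2 tables with the median transcript length, and the same numbers with no length correction. Dropping genes with a pooled mean under 10 gave median pooled means of 543 (KO1) and 567 (KO2).

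Without scaling of the tables the genes' median log2 ratio turned positive, 0.042 for KO1 over KO2, 0.11 for CBFB over KO1 and 0.17 for CBFB over KO2, with all genes then at 0.10, 0.23 and 0.35, so the p53 target genes were below the median of all genes under each. FDXR alone (1 gene) then passed on the KO2 side, 10 of 29 genes were higher in the CBFB table than in the KO1 table and 6 lower (40.0% and 5.03% of all genes), and 12 of 28 were higher than in the KO2 table and 8 lower (51.9% and 8.14%). Scaled to the sum, the medians were -0.091, -0.053 and -0.13. With a minimum of 10 they were -0.065, -0.15 and -0.25, and with no minimum -0.13 and -0.22 for the CBFB pairs. With no minimum TP53AIP1 (1 of 32 genes) passed on the KO1 side of the RUNX1 pair and 7 on the KO2 side, against 6.50% and 12.8% of all genes.

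At a wider limit of 1.5-fold, 0 genes differed between the RUNX1 tables (0.0688% and 0.147% of all genes did), 2 of 29 were higher in the CBFB table than in the KO1 table and 5 lower (6.70% and 4.22%), and 2 of 28 were higher than in the KO2 table and 8 lower (10.4% and 11.4%). After the correction for length and GC content the medians were -0.058, -0.11 and -0.20. FDXR (1 of 28 genes) passed on the KO2 side of the RUNX1 pair, against 1.93% of all genes. On the CBFB side 2 passed in each pair (10.2% and 14.4% of all genes). Of the CBFB pairs, 7 passed on the KO1 side (11.7%) and 11 on the KO2 side (18%). Under this correction BAX (0.0036), KITLG (-0.012) and ZMAT3 (-0.083) changed sign between the CBFB and KO1 tables. Of 204 values over all alternatives, for genes past the limit in the reported setting, the 3 just named changed sign. Values at a minimum of 10, no minimum or the 1.5-fold limit could not, because these settings leave the ratios unchanged. More values fell within the limit then used: 11 without scaling, 2 scaled to the sum, 17 at 1.5-fold and 13 after the correction. Genes within the limit in the reported setting, such as MDM2 and PLK3, are not among the 204.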
